A study of Mus musculus with 14 samples.

Results

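The succinate dehydrogenase assembly factor *Sdhaf4*, the branched-chain ketoacid dehydrogenase subunit *Bckdhb* and the genes of their enzyme complexes were followed in RNA-seq counts of mouse oocytes, 10 genes of the 20638 with counted transcripts. *Sdhaf4* and *Bckdhb* were chosen by their strong rise in the mutant oocytes, so their changes against the controls are given as a description, without a test. The other 8 genes, *Sdha*, *Sdhb*, *Sdhc*, *Sdhd*, *Bckdha*, *Dbt*, *Dld* and *Bckdk*, were taken as their partners, not by their own change, and were tested. Earlier results of these data were known when they were taken. Each of the 10 genes had 1 counted RefSeq transcript.

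The oocytes were full-grown and germinal vesicle (GV)-intact, and came from females aged 4 to 6 weeks, primed with 5 IU of eCG, a gonadotropin that stimulates follicle growth, 48 h before collection. The background strain was a mix, mostly C57BL6, and cumulus cells were removed by pipetting. Each of the 14 libraries held 20 oocytes pooled from 3 mice, per the series' description. *Ago2* fl/fl controls (3 libraries) carried the floxed allele. *Ago2* ADH oocytes (3 libraries) carried a knock-in allele whose product binds small RNAs but cannot cleave RNA, opposite a floxed allele that Cre under the oocyte-specific *Zp3* promoter had removed, and *Ago2* null oocytes (2 libraries) had lost *Ago2*. *Dicer* WT (3 libraries) and *Dicer* KO oocytes (3 libraries), the latter lacking the enzyme that cuts small RNAs from double-stranded RNA, made up a second set. *Dicer* KO was likewise specific to oocytes. *Zp3*-driven Cre acts from growing oocytes on, so these oocytes had the floxed allele before growth.

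Succinate dehydrogenase, complex II of the respiratory chain, oxidises succinate to fumarate in the tricarboxylic acid (TCA) cycle and passes the electrons to ubiquinone. SDHAF4 binds the flavin-carrying SDHA subunit before it joins SDHB, and so protects it during assembly. The branched-chain ketoacid dehydrogenase (BCKDH) complex commits the carbon skeletons of leucine, isoleucine and valine to breakdown, and is switched off when the kinase BCKDK phosphorylates BCKDHA.

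Total counts on transcripts ranged from 29380403 to 58285057 per library. Levels are given as counts-per-million values (CPM) scaled by edgeR's TMM factors, relative to all counted RNA of a library, so that a change in the RNA content of the oocytes cannot be told apart from a change of the gene. *Ago2* itself was at 24.7 ± 0.771 CPM (SD, n = 3) in *Ago2* fl/fl, 13.1 ± 0.726 CPM (n = 3) in *Ago2* ADH and 6.22 ± 1.35 CPM (n = 2) in *Ago2* null oocytes. *Dicer1* was at 758 CPM in *Dicer* WT and 1804 CPM in *Dicer* KO oocytes, in counts over the whole transcript, which do not check a deletion of part of it. The 10 oocyte markers summed to between 12205 and 19125 CPM in every library and the blood cell markers to at most 0.0996 CPM. The 13 cumulus and granulosa markers summed to 42.0 to 49.0 CPM in *Ago2* fl/fl, 38.7 to 46.8 in *Ago2* ADH, 33.1 to 33.4 in *Ago2* null, 59.2 to 67.6 in *Dicer* WT and 53.4 to 57.1 in *Dicer* KO libraries. The sum was thus lower without overlap in *Ago2* null and *Dicer* KO than in their controls, and its part in the results was not tested. *Cyp19a1* made 20.5 to 57.7 CPM of it, while *Foxl2*, *Amh*, *Amhr2* and *Lhcgr* were at 0 in some libraries. Reads with more than 1 alignment, which were tallied apart, made up 33.2% to 34.6% in *Ago2* fl/fl, 57.0% to 58.3% in both *Ago2* mutants, 25.6% to 31.5% in *Dicer* WT and 44.4% to 49.6% in *Dicer* KO libraries, and the part of this shift in the results was not tested. All libraries of an *Ago2* genotype shared 1 sequencing lane and genotypes did not share one, so an effect of the lane cannot be told apart from one of the genotype in that set. No source says that the mice of different libraries were distinct, so p-values measure the spread between these libraries.

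*Sdhaf4* (chromosome 1, 23995939 to 24005656 of GRCm38, minus strand) is a short gene of 3 exons with a 683-base transcript, of which 312 bases are coding and 111 lie opposite *Gm26524*, which counting without strand cannot tell apart. *Bckdhb* lies on the plus strand of chromosome 9, and its counted transcript runs from 83948781 to 84124240 with 11 exons and 1398 bases. This start is 23636 bases inside the gene: a GENCODE model with the same 966 coding bases begins at 83925150, and another, beginning at 83925145, has 1170 coding bases because its reading frame opens in the upstream first exon. The 250 bases before each start in the RefSeq promoter table for GRCm38 are printed because they show how unlike the start sites are. Capitals mark the CCAAT box and, as a second motif, the GC box GGGCGG, both on either strand. The windows are chr1:24005641-24005890 (minus strand), chr9:83924887-83925136 (plus strand) and chr9:83948531-83948780 (plus strand). The last 16 bases of the *Sdhaf4* window lie inside the GENCODE transcript, whose start is annotated further upstream.
Sdhaf4: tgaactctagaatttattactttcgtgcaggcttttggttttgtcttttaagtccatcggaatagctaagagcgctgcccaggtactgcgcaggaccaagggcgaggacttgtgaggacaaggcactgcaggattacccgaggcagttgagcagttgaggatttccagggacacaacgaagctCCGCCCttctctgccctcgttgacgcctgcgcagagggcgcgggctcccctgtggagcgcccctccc
Bckdhb, upstream start: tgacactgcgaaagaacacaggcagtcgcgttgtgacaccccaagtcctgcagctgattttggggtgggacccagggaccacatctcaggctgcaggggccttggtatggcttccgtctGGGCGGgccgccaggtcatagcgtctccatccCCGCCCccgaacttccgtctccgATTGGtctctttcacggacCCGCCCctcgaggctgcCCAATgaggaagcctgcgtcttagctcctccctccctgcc
Bckdhb, start of the counted model: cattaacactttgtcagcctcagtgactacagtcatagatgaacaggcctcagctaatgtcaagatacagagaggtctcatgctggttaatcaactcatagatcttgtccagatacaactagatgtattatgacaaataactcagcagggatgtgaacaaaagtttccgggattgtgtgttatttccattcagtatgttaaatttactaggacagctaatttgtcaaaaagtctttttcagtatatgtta

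The *Sdhaf4* window was 56.8% GC with 14 CpG dinucleotides, and the upstream *Bckdhb* window was 63.2% GC with 15. The window before the counted *Bckdhb* model was 36.4% GC with a single CpG, where the median over 32851 windows of the same 250 bases was 52.4% GC and 6 CpG. Of these windows, 6.24% had a lower GC content, and 18.8% had as few CpG. Both strands were searched for these and for the E-box and the TATA box, and matches of different motifs were allowed to overlap. GGGCGG (in 32.7% of all windows) occurred once before *Sdhaf4* and 3 times before the upstream *Bckdhb* start. CCAAT (33.9% of windows) occurred only before the upstream *Bckdhb* start, at 2 places, and the E-box CANNTG (66.2% of windows) occurred at 2 places before *Sdhaf4* and 1 before the upstream *Bckdhb* start. The TATA box TATAAA (12.4% of windows) was in none of the 3 windows, and none of the 4 motifs was found before the counted *Bckdhb* model.

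The first exon of the counted *Bckdhb* model, 135 bases long, was not particular to this gene. Bases 1 to 137 of the transcript were 95.6% to 99.3% identical to transcripts of 7 other genes, among them *Slc38a6*, *Rab3gap1* and *D10Wsu102e*. Reads lying wholly in this exon can align to several places and then enter the separate tally. The other 10 exons carried most of the counted sequence, and 1262 of the 1398 bases, including 9 exons with identical ends, are shared with both models that begin upstream. The *Bckdhb* count therefore cannot tell the starts apart.

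**Figure D1:**
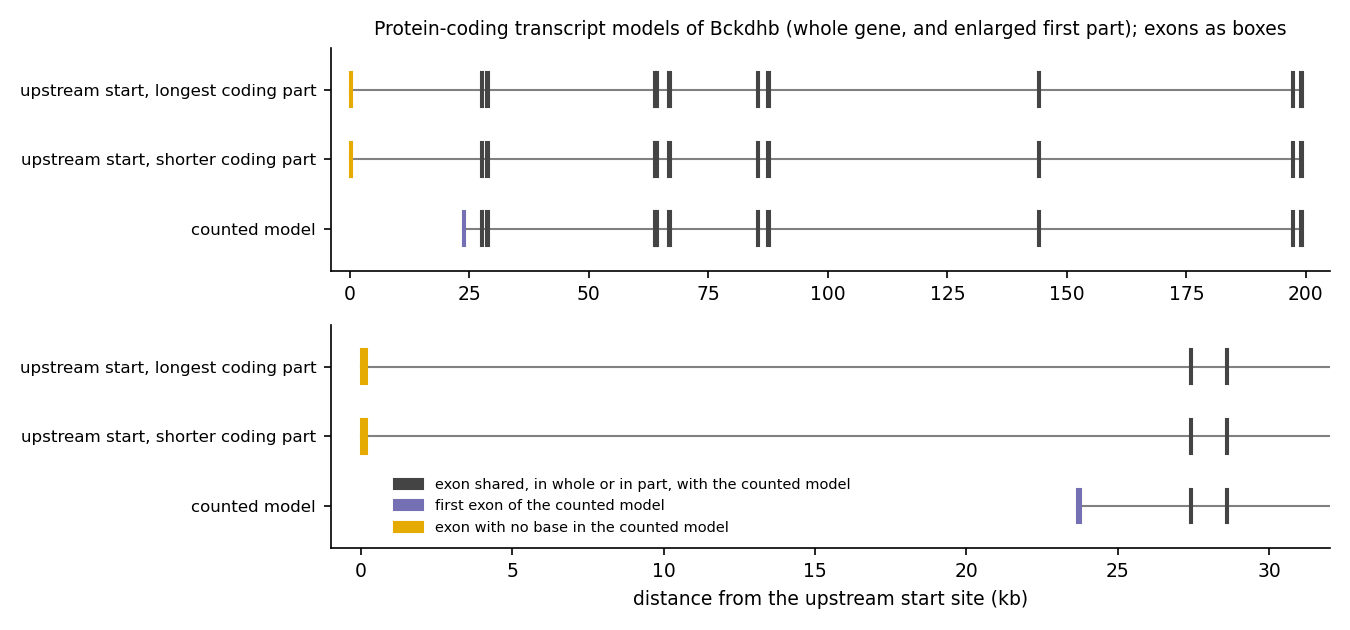
Exons (boxes) of the 3 protein-coding GENCODE models of *Bckdhb* along the distance in kb from the upstream start site, over the whole gene and enlarged over the first part; short exons are drawn at a minimum width. The counted model begins 23636 bases downstream with a first exon of its own, and both other models share its remaining exons.

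By its count for its length, *Sdhaf4* was an abundant transcript already in control oocytes and one of the most abundant in the mutants. Its counts were 5908, 5714 and 5260 in the controls of the *Ago2* set, 53280, 56937 and 42296 in *Ago2* ADH, and 60283 and 59685 in *Ago2* null. They were 3106, 2616 and 3130 in *Dicer* WT and 39526, 30107 and 38996 in *Dicer* KO. Every mutant library was far above every control library.

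In CPM, *Sdhaf4* was at 99.8 ± 2.75 (SD, n = 3) in *Ago2* fl/fl, 1000.3 ± 38.2 (n = 3) in *Ago2* ADH and 1105 ± 37.1 (n = 2) in *Ago2* null oocytes, and at 73.3 ± 7.68 (n = 3) in *Dicer* WT and 1149 ± 111 (n = 3) in *Dicer* KO oocytes. These are ratios of 10.02, 11.1 and 15.7, with log2 fold changes of 3.37 (SE 0.0489), 3.51 (SE 0.0558) and 3.98 (SE 0.0878). Larger log2 changes were measured for 122 of 18835, 128 of 19236 and 66 of 18570 tested transcripts. Per kilobase of transcript, which allows for length, *Sdhaf4* ranked 373rd of the 17105 genes with counts in *Ago2* fl/fl and 481st of 16905 in *Dicer* WT oocytes. In the mutants it ranked 10th, 9th and 8th. Reads shared by several counted transcripts of a gene are tallied apart, and only the highest transcript stood for a gene. Such genes may therefore rank too low, and *Sdhaf4*, with no other counted transcript, too high beside them, which was not tested. The group means rose in the order *Dicer* WT, *Ago2* fl/fl, *Ago2* ADH, *Ago2* null and *Dicer* KO, and only *Ago2* null and *Dicer* KO overlapped in their libraries. The *Ago2* and *Dicer* sets were sequenced apart, so the difference between their controls cannot be told apart from that of the sets.

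*Bckdhb*, which encodes the beta subunit of the decarboxylase that opens the BCKDH reaction, went from a modest to a high level. It had 642, 627 and 616 counts in *Ago2* fl/fl, 10844, 12493 and 8791 in *Ago2* ADH, and 12070 and 12906 in *Ago2* null libraries. The *Dicer* WT libraries had 394, 482 and 379 counts and the *Dicer* KO libraries 3630, 2582 and 3541. Again no mutant library came near a control.

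The *Bckdhb* level was 11.2 ± 0.586 CPM (SD, n = 3) in *Ago2* fl/fl, 210.5 ± 16.3 (n = 3) in *Ago2* ADH and 230.3 ± 20.2 (n = 2) in *Ago2* null oocytes, ratios of 18.9 and 20.6. In *Dicer* KO oocytes it was 103 ± 13.1 CPM (n = 3) against 10.4 ± 1.49 (n = 3) in *Dicer* WT, a ratio of 9.90. The log2 fold changes were 4.28 (SE 0.0700), 4.41 (SE 0.0776) and 3.31 (SE 0.111), and 34, 46 and 121 tested transcripts had larger ones. Per kilobase, *Bckdhb* ranked 5100th and 5088th among genes in the controls, 375th in *Ago2* ADH, 343rd in *Ago2* null and 788th in *Dicer* KO oocytes. The limit given for the *Sdhaf4* ranks holds here too. The order of the group means was *Dicer* WT, *Ago2* fl/fl, *Dicer* KO, *Ago2* ADH and *Ago2* null. Both control groups overlapped in their libraries, as did both *Ago2* mutants, while *Dicer* KO stood apart between them.

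*Sdhaf4* and *Bckdhb* thus differed in which mutant was highest. The effect in *Ago2* ADH minus that in *Dicer* KO was -0.65 on the log2 scale (SE 0.0978) for *Sdhaf4* and 0.92 (SE 0.135) for *Bckdhb*. As both effects were used to choose the genes, these are descriptions.

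**Figure D2:**
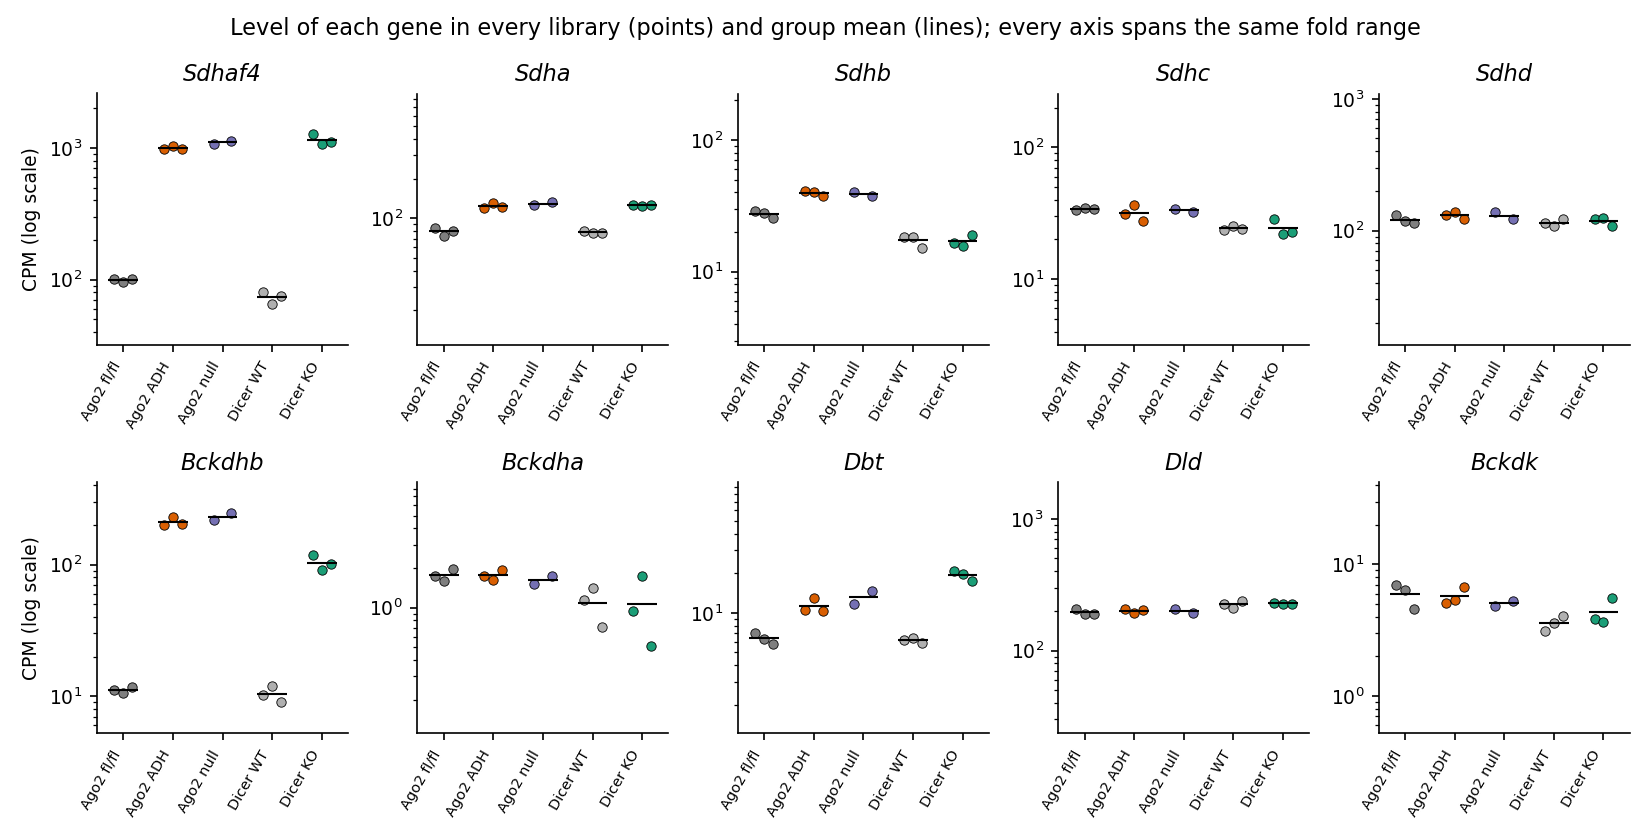
CPM (log axis, the same fold range in every panel) of the 10 genes in each of the 14 libraries (points) with the group mean (line). *Sdhaf4* and *Bckdhb* are 9.90 to 20.6 times their controls in the mutants, *Sdha* and *Dbt* are higher by less in all mutants, *Sdhb* is higher in the *Ago2* mutants, and the others overlap their controls.

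The partners were tested in each comparison at a false discovery rate (FDR) of 1% over all tested transcripts. In *Ago2* ADH against *Ago2* fl/fl oocytes, 3 of the 8 partners were called, all higher. Over all transcripts 40.7% were called, 20.5% higher and 20.1% lower, so that the share of partners called was near the background. In *Ago2* null against *Ago2* fl/fl, 3 of 8 were called, all higher, where 37.2% of all transcripts were called, 18.1% higher and 19.1% lower. In *Dicer* KO against *Dicer* WT, 2 of 8 were called, both higher, where 34.5% of all transcripts were called, 16.7% higher and 17.8% lower. The median log2 fold change of the 8 partners was 0.12, 0.10 and 0.035 in these comparisons, beside 0.0069, 0.0018 and -0.0044 over all tested transcripts. *Ago2* ADH and *Ago2* null oocytes were compared with the same 3 control libraries.

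Among the succinate dehydrogenase subunits, the catalytic subunit rose in all 3 mutants, the iron-sulfur subunit in the *Ago2* mutants, and the membrane anchors did not pass the test. *Sdha* (chromosome 13, 74322254 to 74350280), the flavoprotein that oxidises succinate and the client of SDHAF4, was at 84.4, 73.0 and 80.3 CPM in *Ago2* fl/fl, 119.4, 130.3 and 121.0 CPM in *Ago2* ADH, and 125.9 and 132.2 CPM in *Ago2* null libraries. It was at 79.4, 77.6 and 77.3 CPM in *Dicer* WT and 126.7, 123.8 and 126.5 CPM in *Dicer* KO libraries. Both controls lay at one level and all 3 mutants at another, with no overlap. *Sdha* rose by 0.69 (SE 0.0597, adjusted p = 1.56e-08), 0.74 (SE 0.0687, adjusted p = 1.54e-07) and 0.69 (SE 0.0618, adjusted p = 3.04e-08) on the log2 scale, by edgeR (quasi-likelihood test, p adjusted by Benjamini-Hochberg over all tested transcripts).

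*Sdhb* (chromosome 4, 140961203 to 140979193), whose iron-sulfur clusters carry the electrons towards ubiquinone, rose in the *Ago2* mutants. Its level was 28.7, 27.9 and 25.5 CPM in *Ago2* fl/fl, 41.1, 40.5 and 37.2 CPM in *Ago2* ADH, and 40.2 and 37.8 CPM in *Ago2* null libraries. The changes were 0.58 (SE 0.0738, adjusted p = 2.44e-06) and 0.55 (SE 0.0823, adjusted p = 3.51e-05) by the same edgeR test. In the *Dicer* set the *Sdhb* values were below those of every *Ago2* set library, a difference that cannot be told apart from that of the sets, at 18.4, 18.4 and 15.2 CPM in WT and 16.5, 15.7 and 19.1 CPM in KO libraries, with a log2 fold change of -0.013 (SE 0.121, adjusted p = 0.944 by edgeR). For *Sdhb*, the effect in *Ago2* ADH minus that in *Dicer* KO was 0.54 (SE 0.137) with an adjusted p of 0.0151 by edgeR, which missed the threshold. It passed with DESeq2 (adjusted p = 0.00128), and by edgeR with RLE normalization (adjusted p = 0.00957), without the filter (adjusted p = 0.00622), without *Dicer* WT replicate 3 (adjusted p = 0.00562) and without *Dicer* KO replicate 3 (adjusted p = 0.00437).

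*Sdhc* (chromosome 1, 171127165 to 171150603) and *Sdhd* (chromosome 9, 50596357 to 50603812) encode the anchors that hold the complex in the inner membrane and bind ubiquinone. *Sdhc* was at 24.3 to 34.1 CPM and *Sdhd* at 115.0 to 130.7 CPM in the 5 group means, and mutant and control libraries overlapped in every comparison. The log2 fold changes of *Sdhc* were -0.049 (SE 0.0865), 0.0049 (SE 0.0782) and 0.017 (SE 0.108). Those of *Sdhd* were 0.16 (SE 0.0578, adjusted p = 0.0263 by edgeR), 0.14 (SE 0.0704) and 0.040 (SE 0.0697). The first of these passed without *Ago2* fl/fl replicate 1 (0.21, adjusted p = 0.00711 by edgeR).

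Set against its complex, *Sdhaf4* was above the mean of the subunits in every group. Its level per kilobase was 3.65 times the mean of the 4 subunits in *Ago2* fl/fl and 3.00 times in *Dicer* WT oocytes. In *Ago2* ADH, *Ago2* null and *Dicer* KO oocytes it was 30.3, 33.3 and 41.6 times that mean, with ranges over libraries of 29.4 to 31.4, 31.4 to 35.3 and 38.1 to 44.9. Among the subunits, *Sdhd* was the highest per kilobase (93.4 to 106.2 in the group means) and *Sdhc* the lowest (7.65 to 10.7).

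**Figure D3:**
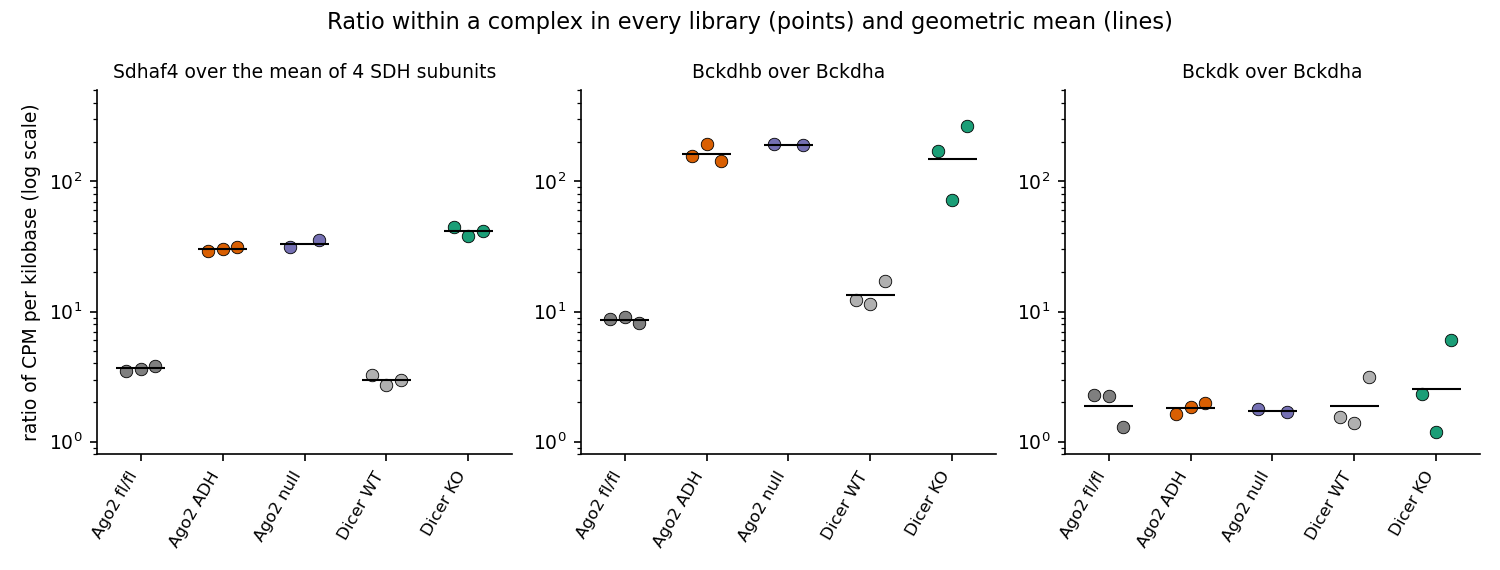
Ratio of CPM per kilobase (log axis) of *Sdhaf4* to the mean of 4 succinate dehydrogenase subunits, *Bckdhb* to *Bckdha*, and *Bckdk* to *Bckdha*, in each library (points) with the geometric mean (line). The first and second ratios are separated between mutants and controls, and the third lies between 1.18 and 6.04 in all 14 libraries.

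The BCKDH complex was represented very unevenly. Per kilobase, *Bckdha* stood at 0.558 to 0.925 and *Dbt* at 1.87 to 5.83 in the group means, whereas *Dld* stood at 77.0 to 89.6. *Bckdha* (chromosome 7, 25629946 to 25658981), the alpha subunit that pairs with BCKDHB and carries the sites the kinase phosphorylates, had 100, 94 and 102 counts in *Ago2* fl/fl, 94, 88 and 83 in *Ago2* ADH, and 85 and 92 in *Ago2* null libraries. In *Dicer* WT it had 44, 57 and 30 counts and in *Dicer* KO 29, 49 and 18. Mutants and controls overlapped in every comparison.

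The *Bckdha* log2 fold changes were 0.044 (SE 0.234), -0.066 (SE 0.266) and -0.050 (SE 0.442). With these standard errors only large changes could have been detected, above all in the *Dicer* set. The counts were made without regard to strand, and 1171 of the exon bases of *Bckdha* lie opposite GENCODE exons of *B3gnt8*. Reads there may come from either gene. Where they also lie in the counted model of *B3gnt8*, they are tallied apart as ambiguous and are missing from the *Bckdha* count. The overlap may thus raise or lower the *Bckdha* level and the ratios to it, which was not tested. The *Bckdhb* level per kilobase was 8.66 times that of *Bckdha* in *Ago2* fl/fl and 13.6 times in *Dicer* WT oocytes. It was 164 times in *Ago2* ADH, 192 times in *Ago2* null and 170 times in *Dicer* KO oocytes, where the 3 libraries ranged from 71.6 to 267.

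*Dbt* (chromosome 3, 116513070 to 116549981), the transacylase that forms the core of the complex, was the one BCKDH partner that rose, and it did so in all 3 mutants. Its level was 7.05, 6.35 and 5.80 CPM in *Ago2* fl/fl, 10.5, 12.9 and 10.3 CPM in *Ago2* ADH, and 11.7 and 14.7 CPM in *Ago2* null libraries. In *Dicer* WT it was 6.18, 6.42 and 5.94 CPM and in *Dicer* KO 20.6, 19.7 and 17.4 CPM. The controls of both sets overlapped, and the *Dicer* KO libraries were above all *Ago2* mutant libraries.

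The log2 fold changes of *Dbt* were 0.86 (SE 0.125, adjusted p = 1.23e-05), 1.08 (SE 0.137, adjusted p = 5.83e-06) and 1.64 (SE 0.131, adjusted p = 6.62e-09) by edgeR. Of the 8 partners, *Dbt* was the one whose effect in *Ago2* ADH was called different from that in *Dicer* KO, at -0.84 (SE 0.180, adjusted p = 0.00448 by edgeR), where 3.55% of all transcripts were called. This call was lost, with adjusted p of 0.0103 to 0.0195 by edgeR, when any one of *Ago2* fl/fl replicate 1 or 2, *Ago2* ADH replicate 1 or 3, *Dicer* WT replicate 1 or 3, or *Dicer* KO replicate 1 or 2 was left out.

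*Dld* (chromosome 12, 31331277 to 31351453), the dihydrolipoamide dehydrogenase that BCKDH shares with the pyruvate and oxoglutarate dehydrogenases, was at 195.9 to 200.5 CPM in the *Ago2* group means and 224.1 to 227.8 CPM in the *Dicer* group means. Its log2 fold changes were 0.082 (SE 0.0514), 0.065 (SE 0.0611) and 0.030 (SE 0.0609), and none was called. *Bckdk* (chromosome 7, 127904082 to 127910221), the kinase that inactivates the complex, was at 3.57 to 5.99 CPM in the group means and changed by -0.022 (SE 0.166), -0.21 (SE 0.181) and 0.30 (SE 0.220), also without a call. Transcripts of 38 other genes match a stretch of the *Bckdk* transcript of 137 to 173 bases at 95% identity or more, and those of 4 genes a shorter stretch of *Dbt*. The ratio of *Bckdk* to *Bckdha* per kilobase averaged 1.73 to 3.18 in the groups and overlapped between mutants and controls.

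**Figure D4:**
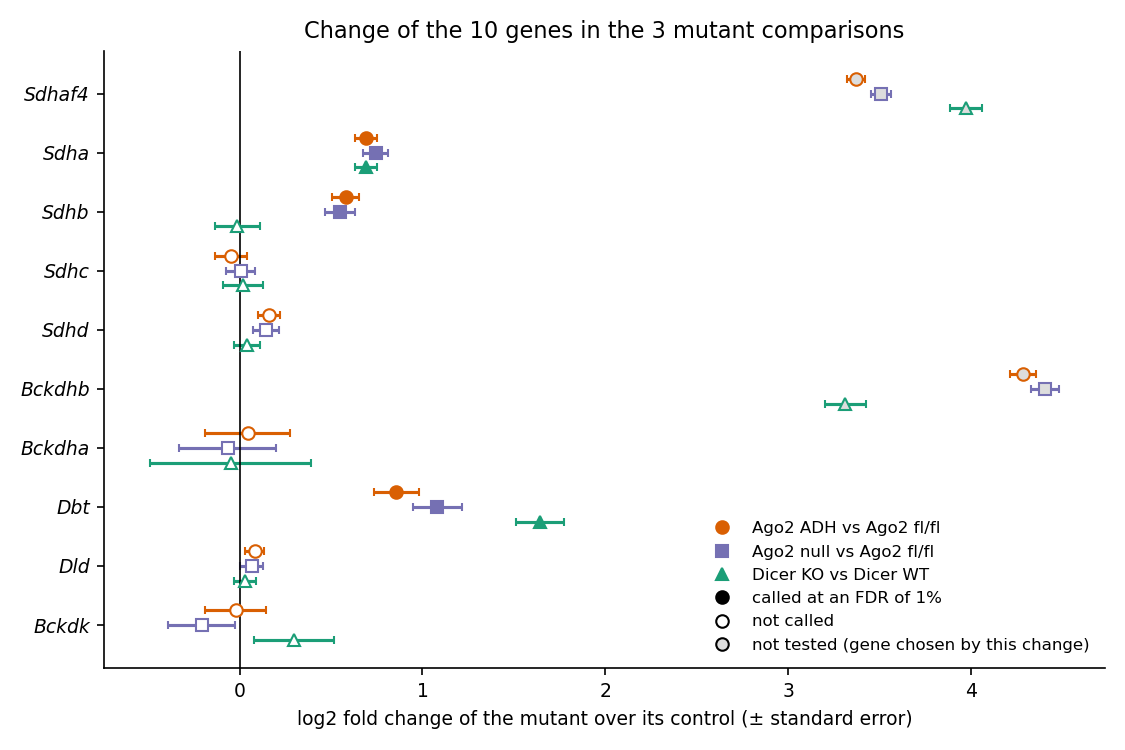
Log2 fold change with standard error (bars) of the 10 genes in *Ago2* ADH and *Ago2* null against *Ago2* fl/fl and in *Dicer* KO against *Dicer* WT oocytes; filled symbols were called at an FDR of 1%, open ones were not, and grey ones were not tested. *Sdhaf4* and *Bckdhb* lie between 3.31 and 4.41, *Sdha*, *Sdhb* and *Dbt* between -0.013 and 1.64, and the other partners between -0.21 and 0.30.

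*Ago2* ADH and *Ago2* null oocytes were then compared directly. None of the 8 partners was called by edgeR, where 0.119% of all transcripts were called, and 0 of the 8 had an unadjusted p under 0.05. DESeq2 and the other settings tried also called 0 of them. *Sdhaf4* and *Bckdhb*, whose levels in both groups had served to choose them, were not tested. *Sdhaf4* had a log2 difference of -0.15 (SE 0.0563) in *Ago2* ADH against *Ago2* null, and the 978 to 1044 CPM of the *Ago2* ADH libraries did not overlap the 1079 to 1131 CPM of the *Ago2* null libraries. *Bckdhb* had one of -0.14 (SE 0.0722) with overlapping libraries. *Dbt* had a log2 difference of -0.24 (SE 0.138) and *Bckdk* one of 0.17 (SE 0.176), and the other partners lay between these.

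Genes of the surrounding metabolism were read from a list of 59, ordered by role. In *Ago2* ADH, 16 of the 56 tested were higher and 7 lower, with a median log2 fold change of 0.010. In *Ago2* null, 14 of 57 were higher and 8 lower (median 0.041), and in *Dicer* KO 10 of 56 were higher and 11 lower (median -0.040). Without *Ago2* null replicate 1 or 2, 5 in place of 8 were lower in *Ago2* null, and without *Dicer* WT replicate 2, 7 in place of 11 in *Dicer* KO. Over all transcripts the shares called higher and lower were 20.5% and 20.1% in *Ago2* ADH, 18.1% and 19.1% in *Ago2* null, and 16.7% and 17.8% in *Dicer* KO, and the counts by role are to be read against these.

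Of the 3 other assembly factors of complex II, 2 were lower and none higher in each comparison, where 20.1%, 19.1% and 17.8% of all transcripts were lower. *Sdhaf1*, which helps insert iron-sulfur clusters into SDHB, fell from 3.87 to 1.57 CPM in *Ago2* ADH (log2 -1.26, SE 0.202, adjusted p = 3.97e-05 by edgeR), to 1.93 CPM in *Ago2* null (-0.96, SE 0.215) and from 2.39 to 0.799 CPM in *Dicer* KO oocytes (-1.58, SE 0.308, adjusted p = 0.000355 by edgeR). *Sdhaf2*, needed for the flavin of SDHA, fell by 0.26 in *Ago2* ADH and 0.46 in *Dicer* KO, and changed by -0.24 (SE 0.0860, adjusted p = 0.0279 by edgeR) in *Ago2* null. *Sdhaf3* fell by 0.56 in *Ago2* null, and its changes of -0.32 (SE 0.137) and -0.28 (SE 0.202) elsewhere were not called. *Sdhaf2* and *Sdhaf3* are named here to complete this group, after their values were seen.

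*Ppm1k*, the phosphatase that reactivates BCKDH, also named after its values were seen, rose by 0.98 (SE 0.260, adjusted p = 0.00515 by edgeR) in *Ago2* null, and its changes in *Ago2* ADH (0.39, SE 0.256) and *Dicer* KO (0.53, SE 0.264) were not called. Of 19 genes of branched-chain amino acid breakdown, 18 were tested in each comparison, and 7, 5 and 4 were higher and 3, 2 and 3 lower. *Mccc1*, a subunit of a carboxylase further down the leucine path than BCKDH, fell by 1.09 (SE 0.168), 0.88 (SE 0.147) and 1.30 (SE 0.222), all called. *Pcca*, of the same role and named after its values were seen, rose by 1.81 (SE 0.0615), 1.82 (SE 0.0696) and 1.51 (SE 0.0694), also all called.

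Among 19 genes of complexes related to BCKDH, of which 17, 18 and 18 were tested in the 3 comparisons, 5, 5 and 2 were higher and 1, 3 and 3 lower. *Dhtkd1*, which encodes an oxoadipate dehydrogenase of lysine breakdown, rose by 0.98 (SE 0.0916), 1.02 (SE 0.0882) and 1.90 (SE 0.0841), from 17.7 to 33.8 CPM in *Ago2* ADH and from 18.1 to 67.4 CPM in *Dicer* KO. *Gldc*, the glycine decarboxylase, rose by 2.50 (SE 0.406) and 2.39 (SE 0.463) in the *Ago2* mutants from a low level of 0.347 CPM, and its change of 1.43 (SE 0.492, adjusted p = 0.0232 by edgeR) in *Dicer* KO was not called. *Pdp2*, a pyruvate dehydrogenase phosphatase subunit, fell by 1.51 (SE 0.270), 1.79 (SE 0.278) and 1.01 (SE 0.208).

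Of 11 genes of the TCA cycle, 2 and 1 were higher and none lower in the *Ago2* mutants, and 2 of 10 tested were higher and 1 lower in *Dicer* KO. Of the 3 lipoate genes, whose products equip DBT and its relatives with their cofactor, 1 was higher and 1 lower in each comparison. Of the 3 electron transfer flavoprotein genes, which deliver electrons from acyl-CoA dehydrogenases to ubiquinone, 1 was higher in each comparison and 1, *Etfb*, lower in *Dicer* KO (-0.67, SE 0.172, adjusted p = 0.00385 by edgeR), a gene named after its values were seen. *Etfdh* rose by 2.04 (SE 0.228), 1.74 (SE 0.257) and 1.72 (SE 0.315), from 0.998 to 3.98 CPM in *Ago2* ADH oocytes.

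**Figure D5:**
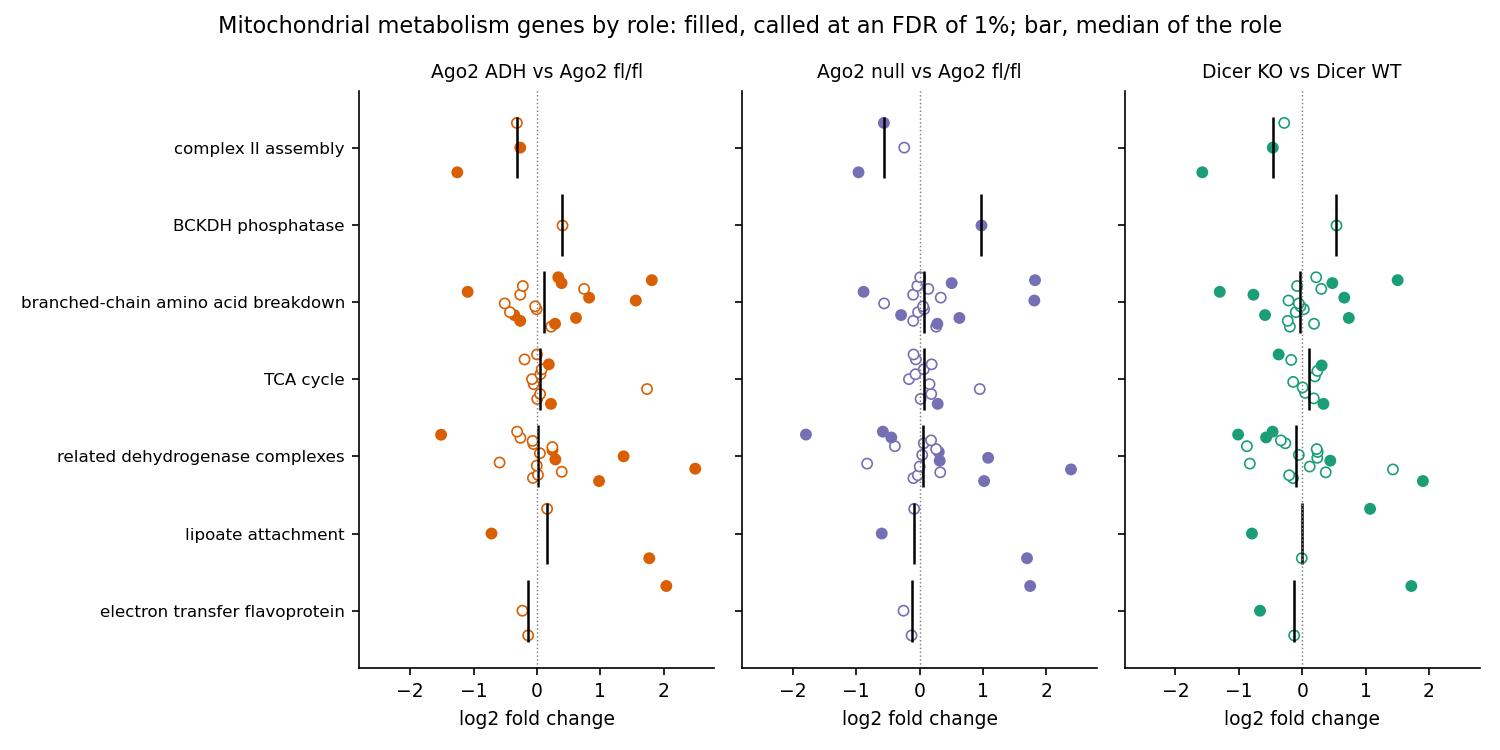
Log2 fold change of each tested gene of the 59 metabolic genes, by role (rows) and comparison (panels), with filled points for calls at an FDR of 1% and a bar at the median of the role. Points lie on both sides of 0 in most roles, and all 3 complex II assembly factors lie below 0 in each panel.

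The patterns most like those of *Sdhaf4* and *Bckdhb* belonged to other kinds of genes. Likeness was the Pearson correlation of log2 CPM over the 14 libraries, centred within the *Ago2* and *Dicer* sets, among 15176 genes. The points share genotypes and sets of libraries, and r is given as a description. For *Sdhaf4* the most alike were *Rab11b*, a GTPase of membrane recycling, *Pphln1*, *Rps23*, a ribosomal protein, *Exo1*, a DNA exonuclease, and *Tpgs2*, all with r = 0.998. For *Bckdhb* they were *Vav3*, a guanine nucleotide exchange factor, *Heatr5b*, *Hps1*, *Btbd9* and *Ccdc68*, with r of 0.996 to 0.997. *Sdhaf4* and *Bckdhb* had r = 0.976 with each other, behind 0.988 and 0.981 with *Sdha*. Many other genes came closer: *Sdha* ranked 184th for *Sdhaf4* and 202nd for *Bckdhb*. *Bckdhb* ranked 394th for *Sdhaf4*, and *Sdhaf4* 259th for *Bckdhb*. The correlation does not weigh the size of a change. The log2 fold changes were 5.18 (*Ago2* ADH) and 4.45 (*Dicer* KO) for *Vav3*, above those of *Bckdhb*, and 4.14 and 3.57 for *Hps1*. *Heatr5b*, *Btbd9* and *Ccdc68* changed by less, at 1.67 to 2.76 in *Ago2* ADH and 1.27 to 2.23 in *Dicer* KO. The named genes most like *Sdhaf4* all changed by less than it, from 0.98 and 1.08 for *Tpgs2* to 2.8 and 3.13 for *Rps23*.

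No tested gene next to *Sdhaf4* or *Bckdhb* was called with a rise near theirs. *Fam135a*, 5.1 kb from *Sdhaf4*, fell by 0.39 (SE 0.0778), 0.41 (SE 0.0837) and 0.33 (SE 0.0905), while *Smap1*, 73.6 kb away on the other side, rose by 0.18 (SE 0.0537, adjusted p = 0.00867 by edgeR) in *Ago2* ADH and was not called in the other comparisons. *B3gat2* was not called and *Col9a1* was too low to be tested. *Ttk*, 52.7 kb from the upstream start of *Bckdhb*, fell by 0.16 (SE 0.0464) and 0.19 (SE 0.0544) in the *Ago2* mutants and changed by -0.033 (SE 0.0606) in *Dicer* KO. On the far side the nearest genes with a counted transcript lie over a megabase away. *Ibtk* fell by 0.68 (SE 0.0485), 0.68 (SE 0.0640) and 0.67 (SE 0.0775), and neither *Tent5a*, which was too low to be tested in the *Dicer* set, nor *Elovl4*, on the near side beyond *Ttk*, was called. *Elovl4* changed by 1.25 (SE 0.440, adjusted p = 0.0231 by edgeR), 0.32 (SE 0.552) and 0.33 (SE 0.447). *Tent5a* and *Elovl4* were under 1 CPM in the group means of the comparisons, where only large changes could have been detected.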

How the data were processed

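RNA-seq had been performed on 20 oocytes per library with amplified cDNA. The authors aligned the reads to mm10 (GRCm38) and RefSeq transcripts with TopHat2 2.0.7, per the submitters' processing notes, counted them per transcript with HTSeq 0.6.1 in its strict intersection mode without regard to strand, and deposited raw counts, in which reads with several alignments are tallied apart. DESeq 1.10.0 is also named there. The paper gives separate alignment options for reads of different lengths, and does not say which libraries had which. The part of this in the results was not tested. Reads were amplified and carried no molecular identifiers.

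Of 26495 transcripts, 26081 and 113 were matched to symbols by the RefSeq and GENCODE tables, and the transcript with the highest mean count stood for a gene. A comparison used only the libraries of the groups it names. Models were fitted in R 4.3.3 by edgeR 4.0.16 after filterByExpr (minimum count 10, total 15) and TMM, by the quasi-likelihood test at an FDR of 1% over all tested transcripts. The difference of effects was fitted on 12 libraries of 4 groups. The fit was tested on simulated counts with few changed transcripts and the same dispersion for all. This setting is simpler than these data, so it does not measure their rate of false calls. Replicates differed by more than sampling noise, with a chi-square per degree of freedom of 6.35 to 14.3. Shared sequence was searched with blastn 2.17.0 among GENCODE transcripts, for matches of at least 100 bases and 95% identity. Alternatives were DESeq2 1.42.0, RLE, all transcripts unfiltered, a minimum of 10 counts per library, 1 transcript per gene, all 5 groups in one fit, an FDR of 5%, each replicate left out and the replicate block.

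The members and lists were chosen with earlier results of these data known. The genes named were all 10 members, the 2 largest called changes in each direction of the metabolic list in *Ago2* ADH and in *Dicer* KO, the 5 genes most alike in pattern to *Sdhaf4* and to *Bckdhb*, and the 2 nearest counted genes on each side of both. The blood cell markers with a counted transcript (3 of 4) summed to at most 0.0996 CPM.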

Additional observations from a re-analysis of the deposited data

Results flagged for a closer look

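The change of *Dbt*, the transacylase core of BCKDH, was called different between *Ago2* ADH and *Dicer* KO, but not under every setting. Its effect in *Ago2* ADH oocytes minus its effect in *Dicer* KO oocytes was -0.84 on the log2 scale (SE 0.180, adjusted p = 0.00448 by edgeR's test of the difference). The call was lost when any of several replicates, named above, was left out. All 3 *Ago2* ADH libraries (10.3 to 12.9 CPM) were below all 3 *Dicer* KO libraries (17.4 to 20.6 CPM), with the controls of both sets at 5.80 to 7.05 CPM. The *Ago2* and *Dicer* sets were sequenced apart.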

How the results depend on the processing

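The counts of called partners, and of called metabolic genes in both directions together (23, 22 and 21), stayed within 1.5 times under every alternative run, except for the partners in the difference of the *Ago2* ADH and *Dicer* KO effects. By direction, the metabolic genes called lower went from 7 to 13 in *Ago2* ADH at an FDR of 5%, from 8 to 5 in *Ago2* null without *Ago2* null replicate 1 or 2, and from 11 to 7 in *Dicer* KO without *Dicer* WT replicate 2. In the difference of effects 1 partner was called, against 2 with DESeq2, 2 with RLE normalization, 2 without the filter and 2 at an FDR of 5%, where *Sdhb* joined *Dbt*, and 0 to 2 when a replicate was left out. *Sdhaf4* and *Bckdhb* kept their direction under all alternatives. As they were chosen for large rises in these same libraries, this adds no support for the rises. Same-numbered libraries did not deviate together, since their correlations were 0.0174, 0.0310 and 0.00636 for *Ago2* ADH with *Ago2* fl/fl, -0.0166 and -0.0283 for *Ago2* null, -0.0884, 0.0209 and -0.126 for *Dicer*, and 0.0408 and 0.0182 for *Ago2* ADH with *Ago2* null. The replicate block left the partners called at 3, 3 and 2, at 0 between the *Ago2* mutants and at 1 in the difference of effects, and gave 20, 18 and 20 called metabolic genes. The cause of none of these changes was tested. Depth limits *Bckdha* most, with 18 to 102 counts per library.

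Changes of sign occurred for values that were called under no setting. All 5 groups in one fit gave -0.0033 for *Bckdha* in *Ago2* ADH and -0.026 for *Sdhc* in *Ago2* null, the latter -0.00054 without the filter. The replicate block gave 0.016 for *Bckdha* in *Ago2* null and 0.014 for *Sdhc* between the *Ago2* mutants. Between the *Ago2* mutants, DESeq2, RLE, 10 counts in every library, 1 transcript per gene and all 5 groups gave 0.0015, 0.0015, 0.00097, 0.0058 and 0.0017 for *Sdhd*, 0.041 with the replicate block, and 0.00060, 0.00062, 7.7e-05, 0.0049 and 5.3e-05 for *Dld*. For the difference of effects, *Dld* was at 0.031 with DESeq2, 0.031 with RLE, 0.0093 without the filter, 0.0028 with 1 transcript per gene and 0.0011 with all 5 groups.

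With 1 replicate left out, *Bckdha* ranged from -0.034 to 0.12 in *Ago2* ADH, -0.17 to 0.037 in *Ago2* null, -0.59 to 0.29 in *Dicer* KO, -0.0023 to 0.19 between the *Ago2* mutants and -0.30 to 0.58 in the difference of effects. *Bckdk* ranged from -0.18 to 0.099 in *Ago2* ADH. *Sdhb* ranged from -0.10 to 0.048 in *Dicer* KO and -0.030 to 0.059 between the *Ago2* mutants. *Sdhc* ranged from -0.15 to 0.036 in *Ago2* ADH, -0.027 to 0.038 in *Ago2* null, -0.11 to 0.085 in *Dicer* KO, -0.18 to 0.017 between the *Ago2* mutants and -0.23 to 0.0074 in the difference of effects. *Sdhd* ranged from -0.0064 to 0.10 in *Dicer* KO and -0.085 to 0.093 between the *Ago2* mutants. *Dld* ranged from -0.025 to 0.066 in *Dicer* KO, -0.057 to 0.060 between the *Ago2* mutants and -0.039 to 0.052 in the difference of effects.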
